A study of Mus musculus with 9 samples.

Results

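The collagen genes of sorted mouse neural crest cells were taken as every gene of the deposited table named Col, a number, the letter a and a number. This gave 41 genes of 33495, of which 11 encode fibrillar chains, 9 network-forming chains and 21 other chains. FPKM (fragments scaled to gene model length and library size) was given in all 3 groups for 34 of the 41, and 21 of these reached 1 FPKM in 1 or more groups. The cells came from C57BL/6 embryos at E9.5, in 3 groups of 3 samples. The first group carried a conditional mutation of Mef2c, a transcription factor gene, in the neural crest and received endothelin-1 (ET-1), a secreted peptide that signals to crest cells of the pharyngeal arches. The second was wild type with ET-1 and the third wild type with PBS, the vehicle. Embryo explants, cut above the first branchial arch and below the hindlimb, recovered for 1 h and received 10 µM ET-1 or PBS. Crest cells marked by a genetic label were sorted after a further culture of 12 to 15 h. The drivers of the label and of the conditional mutation, and the number of embryos in a sample, are not stated in the sources used here. No mutant received PBS, so a difference that exists without ET-1 and a changed response to ET-1 cannot be told apart.

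Collagens are proteins in which chains wind around each other in a helix rich in glycine and proline. Fibrillar collagens (types I, II, III, V and XI among them) form the banded fibrils of mesenchyme, bone and cartilage, and type V chains are known to start fibrils and limit their width. Type IV collagen forms the mesh of basement membranes, and the remaining types decorate fibrils, form beaded filaments or anchor in the cell membrane. Cranial neural crest cells give rise to the cartilage, bone and connective tissue of the face, which are rich in collagen, while migrating crest cells move through matrix laid down largely by other tissues.

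Each FPKM value was the authors' deposited value for a whole group, and carries no error between replicates. Single-exon genes showed the depth behind it: 46930101 pooled reads in the mutant, 19801230 in wild type with ET-1 and 21507319 in wild type with PBS. The mutant was 2.37 times as deep as wild type with ET-1. Intervals are exact, at 95%, for the counting of pooled reads, and leave out the spread between embryos. Mef2c itself, a check of the labels, stood at 10.1 FPKM in the mutant, 25.2 FPKM in wild type with ET-1 and 7.71 FPKM in wild type with PBS (adjusted p = 6.52e-11 for the mutant, based on the authors' deposited table). These are values for a gene model and not for single exons, and the deleted stretch is not known here. The crest markers Sox10, Tcfap2a, Tcfap2b, Foxd3, Ngfr, Ets1, Twist1 and Prrx1 were all measured and summed to 235 FPKM in the mutant, 221 FPKM in wild type with ET-1 and 145 FPKM in wild type with PBS. In bulk RNA, fewer cells of a type and less RNA per cell cannot be told apart.

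Promoter windows from RefSeq (build GRCm38.p6) run from 250 bases before the gene start to 50 after it. They are shown for Col5a1, Col3a1 and Col6a3, whose differences between groups are described below, and for the divergent pair Col4a1 and Col4a2. An entry was found for 33 of the 41 genes, but not for Col5a2. Capitals mark the motifs TATAAA (the TATA box), CCAAT (bound by NF-Y) and GGGCGG (bound by SP1) on either strand.
Col5a1, chr2:27886175-27886474, plus strand: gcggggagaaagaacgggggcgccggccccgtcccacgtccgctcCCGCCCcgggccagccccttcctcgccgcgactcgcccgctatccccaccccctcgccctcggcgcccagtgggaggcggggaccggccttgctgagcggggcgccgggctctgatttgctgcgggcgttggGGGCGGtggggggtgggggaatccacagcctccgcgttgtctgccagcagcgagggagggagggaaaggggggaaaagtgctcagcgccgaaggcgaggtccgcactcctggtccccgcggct
Col3a1, chr1:45311288-45311587, plus strand: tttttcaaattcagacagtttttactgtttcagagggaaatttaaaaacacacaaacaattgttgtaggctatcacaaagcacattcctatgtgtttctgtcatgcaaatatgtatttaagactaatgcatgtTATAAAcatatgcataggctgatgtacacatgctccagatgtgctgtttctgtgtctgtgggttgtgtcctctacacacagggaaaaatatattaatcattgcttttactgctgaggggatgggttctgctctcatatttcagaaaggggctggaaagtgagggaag
Col6a3, chr1:90843922-90844221, minus strand: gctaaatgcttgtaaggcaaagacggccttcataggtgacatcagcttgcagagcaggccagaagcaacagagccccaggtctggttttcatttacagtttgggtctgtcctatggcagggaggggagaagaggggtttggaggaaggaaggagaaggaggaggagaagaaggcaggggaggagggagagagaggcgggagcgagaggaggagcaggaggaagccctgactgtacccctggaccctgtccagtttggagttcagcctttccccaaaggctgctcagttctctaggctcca
Col4a1, chr8:11312777-11313076, minus strand: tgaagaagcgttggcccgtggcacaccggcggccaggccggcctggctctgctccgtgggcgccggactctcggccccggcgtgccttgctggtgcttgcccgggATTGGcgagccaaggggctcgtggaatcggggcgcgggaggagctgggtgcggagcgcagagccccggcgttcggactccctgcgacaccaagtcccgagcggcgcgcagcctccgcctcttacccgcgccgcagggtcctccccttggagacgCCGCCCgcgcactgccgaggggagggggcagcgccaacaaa
Col4a2, chr8:11312555-11312854, plus strand: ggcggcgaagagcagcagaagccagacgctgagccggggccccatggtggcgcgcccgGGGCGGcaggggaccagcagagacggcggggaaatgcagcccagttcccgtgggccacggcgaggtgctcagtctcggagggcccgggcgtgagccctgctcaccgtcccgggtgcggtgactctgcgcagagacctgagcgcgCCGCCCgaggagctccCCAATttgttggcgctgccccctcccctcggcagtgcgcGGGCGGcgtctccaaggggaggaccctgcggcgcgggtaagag
The windows differ widely in base composition. GC content was 75% for Col5a1, 74.0% for Col4a1, 73.7% for Col4a2, 56.3% for Col6a3 and 37.7% for Col3a1. Col5a1 held 2 GGGCGG motifs and no TATAAA, while Col3a1 held 1 TATAAA and none of the other motifs. The TATAAA of Col3a1 began 117 bases before the start, and whether it acts as a TATA box was not tested. Col6a3 held none of the 3. The windows of Col4a1 and Col4a2 share 78 bases, since the genes start back to back, and the shared stretch is read on opposite strands. GGGCGG was present in 35.7% of all 32851 windows, CCAAT in 37.4% and TATAAA in 13.6%. The MEF2 consensus, searched on both strands, was in none of the windows printed, in 1 of 36 collagen windows (Col13a1) and in 3.19% of all windows. The authors' own mark of a MEF2 motif, given below, is borne by Col5a1, Col6a3 and 338 of 406 induced genes. That mark comes from a separate search, which may cover other bases, and was not compared with these windows.

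**Figure D1:**
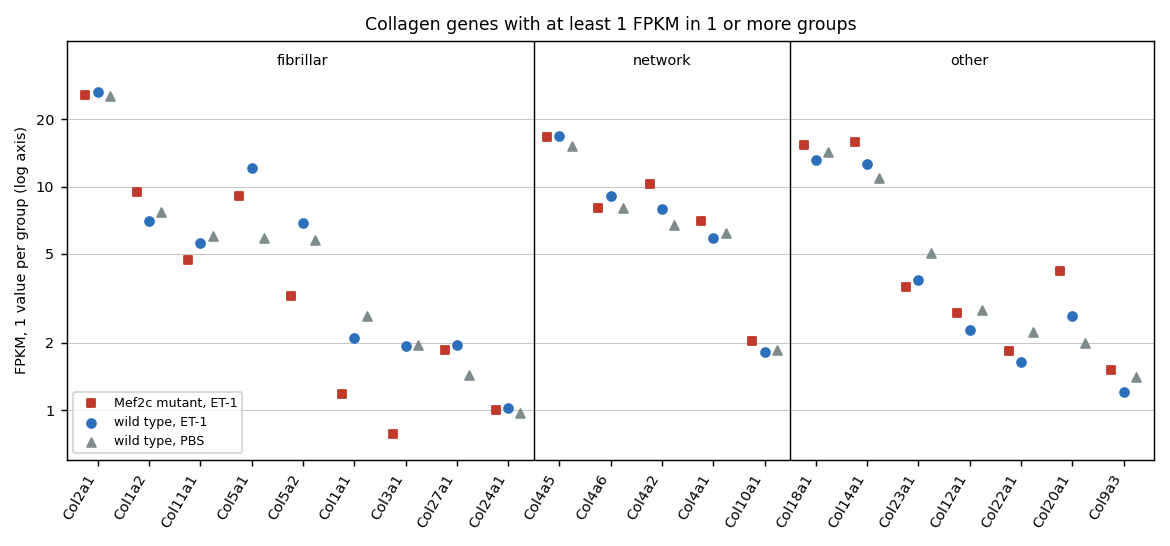
FPKM (log axis) of the 21 collagen genes that reached 1 FPKM in 1 or more groups, by class, with 1 symbol for each group: mutant with ET-1, wild type with ET-1 and wild type with PBS. Col2a1 was at 25.7, 26.6 and 25.4 FPKM in that order, and Col3a1 lay below 1 FPKM in the mutant only.

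Among fibrillar chains, Col2a1, the chain of cartilage type II collagen, had the highest FPKM of all collagens in each group. Its level was 25.7 FPKM in the mutant, 26.6 FPKM in wild type with ET-1 and 25.4 FPKM in wild type with PBS. The pooled reads were 4001, 1744 and 1812 in the same order. They lay over a recovered model of 3316 bases, shorter than the GENCODE M21 exon length of 9243 bases. Col4a5 held more reads, at 5258, 2245 and 2207, so the top rank depends on the model length. Col2a1 passed neither test, with a ratio of 0.968 (interval 0.915 to 1.02) for the mutant over wild type and 1.05 (interval 0.978 to 1.12) for ET-1 over PBS. Type I, the main collagen of bone and skin, is built from Col1a1 and Col1a2. Col1a2 stood at 9.51 FPKM in the mutant, 7.02 FPKM in wild type with ET-1 and 7.67 FPKM in wild type with PBS. Col1a1 was lower throughout, at 1.18, 2.11 and 2.65 FPKM in the same order. Col11a1, a minor chain of cartilage fibrils, was at 4.69, 5.59 and 5.99 FPKM. Col27a1, a fibrillar chain of developing cartilage, was at 1.85, 1.95 and 1.44 FPKM, and Col24a1 at 0.998, 1.03 and 0.970 FPKM.

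Network-forming chains were led by Col4a5, a basement membrane chain, at 16.7 FPKM in the mutant, 16.9 FPKM in wild type with ET-1 and 15.3 FPKM in wild type with PBS. It passed neither test, with a ratio of 0.988 (interval 0.940 to 1.04) for the mutant over wild type and 1.10 (interval 1.04 to 1.17) for ET-1 over PBS. Its X-linked neighbour Col4a6 was at 8.03, 9.11 and 8.00 FPKM. The ubiquitous basement membrane chains were Col4a1, at 7.01, 5.88 and 6.20 FPKM, and Col4a2, at 10.3, 7.93 and 6.77 FPKM. Neither passed a test. Col10a1, known from hypertrophic cartilage, was at 2.04, 1.81 and 1.86 FPKM over a model of 4706 bases, longer than its GENCODE M21 exon length of 3130 bases. Nt5dc1 exons overlap 0.575% of its annotated exons, and the rest of the model was not checked for overlap.

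Of the other collagens, Col18a1, a basement membrane collagen that is the source of endostatin, stood at 15.4 FPKM in the mutant, 13.1 FPKM in wild type with ET-1 and 14.3 FPKM in wild type with PBS. The ratio was 1.17 (interval 1.11 to 1.23) for the mutant over wild type and 0.920 (interval 0.864 to 0.979) for ET-1 over PBS, neither past the test. Col14a1, which binds along fibrils, was at 15.9, 12.6 and 10.9 FPKM. Col23a1, a transmembrane collagen, was at 3.55, 3.81 and 5.03 FPKM. Col12a1, which also binds along fibrils, was at 2.73, 2.29 and 2.82 FPKM, and Col9a3, a chain of cartilage type IX, at 1.51, 1.21 and 1.41 FPKM (6.07% of its exon bases lie in exons of Tcfl5). Col20a1, of the same fibril-associated family, was at 4.18, 2.64 and 2.01 FPKM. Col22a1 was at 1.83, 1.64 and 2.24 FPKM, over a short model of 1081 bases that has no match in GENCODE M21. The summed FPKM of the 34 measured collagens was 152 in the mutant, 150 in wild type with ET-1 and 139 in wild type with PBS. Fibrillar chains made up 38.2%, 43.9% and 41.9% of these sums.

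The first comparison asked which collagen genes ET-1 changed in wild-type crest. Col5a1, the main chain of fibril-starting type V collagen, rose with ET-1. It was at 12.1 FPKM with ET-1 and 5.91 FPKM with PBS, from 1983 and 1053 pooled reads. The ratio was 2.05 (interval 1.90 to 2.21), with an adjusted p = 5.47e-06 by the Benjamini-Hochberg method applied to the authors' deposited table. Among the 21 collagens tested, those with at least 1 FPKM in either group, Col5a1 alone rose and 0 fell, where 0.39% of 15395 genes rose and 0.143% fell (0.533% in either direction). The crest marker Sox10 rose too, at 61.0 FPKM with ET-1 and 35.7 FPKM with PBS, 1 of 4 crest markers that rose among 7 tested, and the part of this in the collagen values was not tested. At an unadjusted p under 0.05 the collagen counts were also 1 higher and 0 lower, where 2.49% and 2.01% of all genes were. Col5a1 (ENSMUSG00000026837) lies on chromosome 2 at 27741945 to 27895034 in build mm9, and other genes' exons overlap 2.50% of its annotated exons. In the authors' deposited table of 406 induced genes its normalized fold is 2.00 and it bears the marks of a MEF2 motif and of dependence on Mef2c, marks that 338 and 73 of the 406 genes bear.

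The partner chain Col5a2 was at 6.88 FPKM with ET-1 and 5.75 FPKM with PBS, a ratio of 1.196 (interval 1.10 to 1.29), and did not pass the test. The rarer Col5a3 was at 0.452 FPKM with ET-1 and 0.259 FPKM with PBS, too low to enter it. Among fibrillar chains the median log2 ratio (of FPKM + 1) was 0.04 over 9 tested, against 0.01 over all genes tested. It was 0.14 over 5 network chains and -0.12 over 7 others. At a ratio of 1.5 or more either way, 1 collagen tested was higher with ET-1 and 0 were lower, where 5.63% and 5.18% of all genes were.

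**Figure D2:**
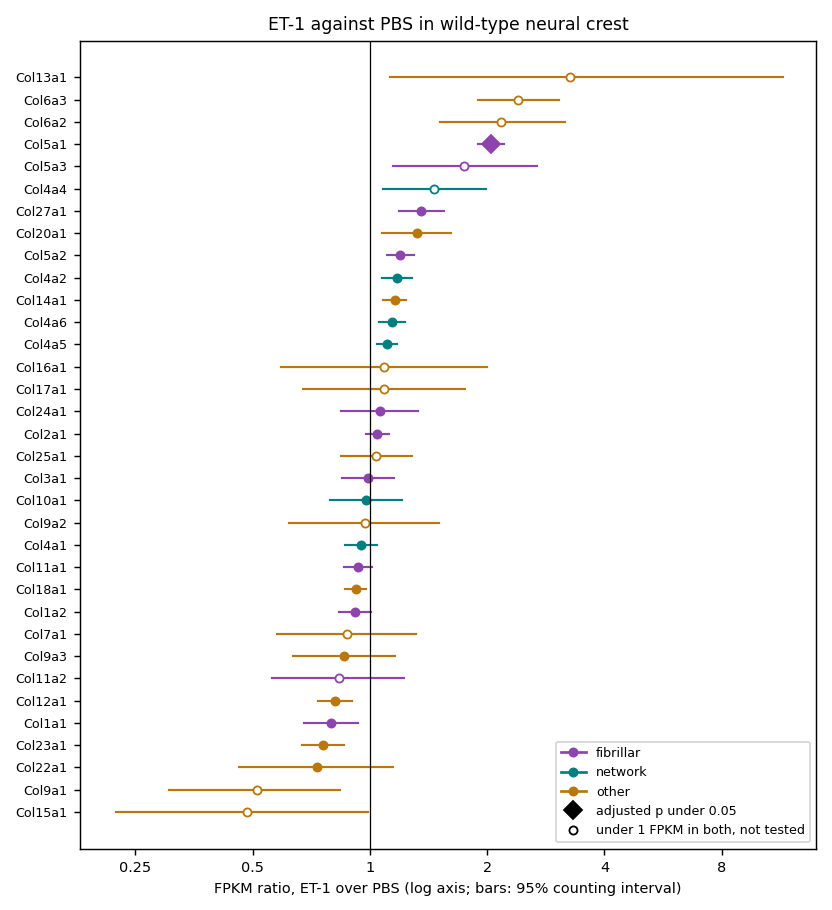
FPKM ratio of ET-1 over PBS in wild type (log axis) for the 34 measured collagen genes, coloured by class, with 95% counting intervals as bars. Col5a1 at 2.05 carries the only large diamond, which marks an adjusted p under 0.05, and open circles are genes under 1 FPKM in both groups.

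Below 1 FPKM, both measured type VI chains, which build the beaded filaments around cells, had higher values with ET-1. Col6a3 was at 0.972 FPKM with ET-1 and 0.405 FPKM with PBS, from 230 and 104 reads, a ratio of 2.40 (interval 1.90 to 3.06). With no filter on low values its adjusted p, based on the authors' deposited table, was 0.334, so it was not called. It is also in the authors' deposited table of induced genes, with a normalized fold of 2.38, an unadjusted p = 0.00301 and both marks. Col6a2 was at 0.558 FPKM with ET-1 and 0.257 FPKM with PBS, from 92 and 46 reads. Of all measured collagens the largest ratio was that of Col13a1, a transmembrane collagen, at 3.26 (interval 1.13 to 11.5), from 15 reads with ET-1 and 5 with PBS. The smallest was that of Col15a1, a basement membrane collagen, at 0.483 (interval 0.223 to 0.985), from 12 and 27 reads.

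The second comparison asked which collagen genes depended on Mef2c in the presence of ET-1. Col5a2 and Col3a1 fell in the mutant. Col5a2 was at 3.23 FPKM in the mutant and 6.88 FPKM in wild type, both with ET-1, from 1458 and 1308 reads. The ratio of mutant over wild type was 0.470 (interval 0.436 to 0.507), with an adjusted p = 7.56e-08 by the Benjamini-Hochberg method applied to the authors' deposited table. Col3a1, the chain of type III collagen in loose connective tissue and vessel walls, was at 0.781 FPKM in the mutant, 1.94 FPKM in wild type with ET-1 and 1.96 FPKM in wild type with PBS, from 307, 322 and 354 reads. The ratio of mutant over wild type with ET-1 was 0.402 (interval 0.343 to 0.472), with an adjusted p = 0.000723 by the same method from the authors' deposited table. Of the 21 collagens tested in this comparison 2 fell and 0 rose, where 3.75% of 15459 genes fell and 1.18% rose (4.94% in either direction). Exons of Gm47302 overlap 1.44% of the annotated exons of Col3a1, and none overlap those of Col5a2. In the same comparison the macrophage gene Cd68 rose, at 12.4 FPKM in the mutant and 5.54 FPKM in wild type, and of 7 crest markers tested 1 rose and 1 fell. Tcfap2b rose, at 40.03 FPKM in the mutant and 26.4 FPKM in wild type, and Ets1 fell, at 24.1 FPKM in the mutant and 31.7 FPKM in wild type. The part of these markers in the collagen values was not tested.

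Other fibrillar chains with lower values did not pass the adjusted test. Col1a1 was at 1.18 FPKM in the mutant and 2.11 FPKM in wild type, with a ratio of 0.559 (interval 0.477 to 0.656; adjusted p = 0.103, based on the authors' deposited table). Col5a1 was at 9.13 FPKM in the mutant and 12.1 FPKM in wild type, with a ratio of 0.754 (interval 0.714 to 0.798; adjusted p = 0.0742, based on the authors' deposited table). The authors marked it as dependent on Mef2c, for which the p-value in the authors' deposited table is 0.00402. The value in wild type with ET-1 enters both comparisons of Col5a1. The mutant value of 9.13 FPKM was 1.54 times that of wild type with PBS (interval 1.44 to 1.65).

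Not all fibrillar chains were lower in the mutant. Col1a2 was at 9.51 FPKM in the mutant and 7.02 FPKM in wild type (adjusted p = 0.231, based on the authors' deposited table). Over the 9 fibrillar chains tested, 8 had a lower and 1 a higher value in the mutant, and the median log2 ratio was -0.21, against 0.05 over all genes tested. Without the filter on low values, which adds Col5a3 and Col11a2, it was -0.051. The median was 0.11 over 5 network chains, 3 of them higher, and 0.19 over 7 other collagens, 6 of them higher. The highest ratio among tested collagens was that of Col20a1, at 1.58 (interval 1.36 to 1.84), from 4.18 FPKM in the mutant and 2.64 FPKM in wild type (adjusted p = 0.404, based on the authors' deposited table). At an unadjusted p under 0.05, 4 tested collagens were lower (Col1a1, Col3a1, Col5a1 and Col5a2) and 2 higher (Col1a2 and Col20a1), where 7.12% and 4.45% of all genes were. At a ratio of 1.5 or more either way, 3 were lower and 1 higher, where 8.79% and 7.37% of all genes were.

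**Figure D3:**
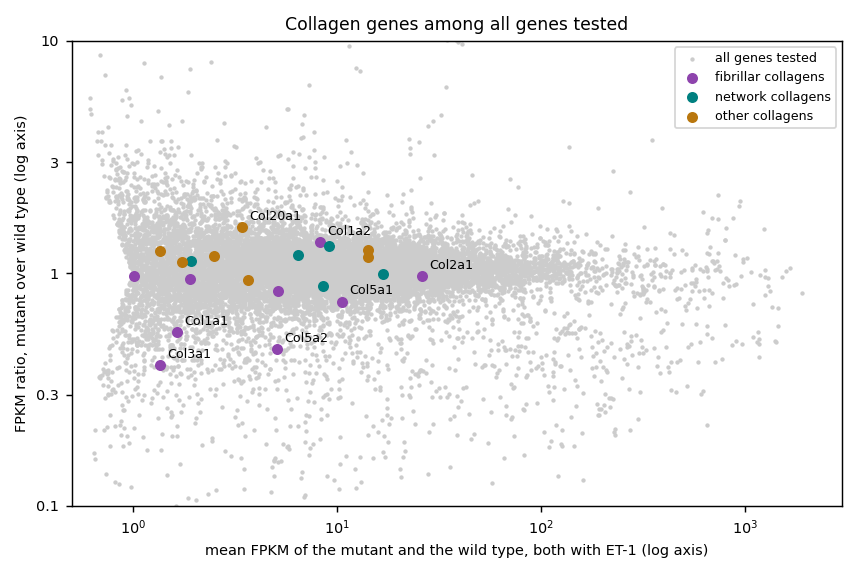
FPKM ratio of mutant over wild type, both with ET-1, against the mean FPKM of the 2 groups (log axes) for all genes tested (grey) and the collagens among them by class; genes with ratios beyond 0.1 or 10 or at 0 are not drawn. Col5a2 at 0.470 and Col3a1 at 0.402 lie below the dense band of genes, with many other genes as low or lower, and most collagens lie inside the band.

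Col5a2 and Col3a1 are neighbours on mouse chromosome 1, on opposite strands with 24614 bases between their ends. In build mm9 Col3a1 (ENSMUSG00000026043) spans 45368383 to 45406551 and Col5a2 (ENSMUSG00000026042) spans 45431166 to 45560127. The nearest measured coding genes at 1 FPKM or more on each side, looked up after the values were seen, did not pass the test. Gulp1 was at 9.03 FPKM in the mutant and 6.58 FPKM in wild type with ET-1. Wdr75 was at 19.7 FPKM in the mutant and 16.2 FPKM in wild type with ET-1.

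Col6a3, the long chain of type VI collagen, had by far its lowest value in the mutant but lay under the 1 FPKM needed to enter the test. It was at 0.0143 FPKM in the mutant, 0.972 FPKM in wild type with ET-1 and 0.405 FPKM in wild type with PBS, from 8, 230 and 104 reads over a model of 11947 bases. The mutant held 0.0147 of the level of wild type with ET-1 (interval 0.00626 to 0.0294) and 0.0353 of that with PBS (interval 0.0148 to 0.0721), at more than the depth of either. Tested with no filter on low values, its adjusted p was 9.83e-23, based on the authors' deposited table. In GENCODE M21 none of its 50-base words occurred in transcripts of other genes, and none of its exon bases lay in their exons. The gene (ENSMUSG00000048126) lies on chromosome 1 at 92663435 to 92740529 in build mm9. Its nearest measured coding neighbours at 1 FPKM or more were Cops8, at 24.6 FPKM in the mutant and 23.2 FPKM in wild type with ET-1, and Lrrfip1, at 11.2 and 10.0 FPKM in that order, and neither passed the test. The partner chain Col6a2 was at 0.811 FPKM in the mutant and 0.558 FPKM in wild type with ET-1, a ratio of 1.45 (interval 1.15 to 1.85). The third chain, Col6a1, is listed with whole numbers of 2, 1 and 0 in mutant, wild type with ET-1 and wild type with PBS, and was not measured.

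**Figure D4:**
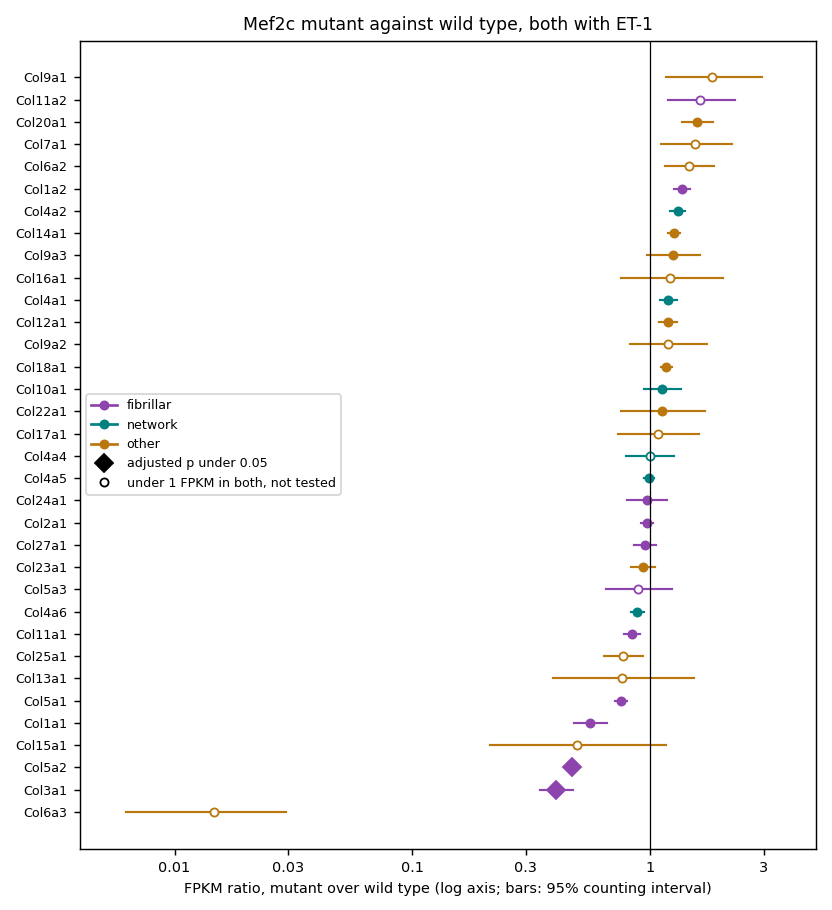
FPKM ratio of mutant over wild type, both with ET-1 (log axis), for the 34 measured collagen genes, coloured by class, with 95% counting intervals as bars and large diamonds for an adjusted p under 0.05. Col5a2 and Col3a1 carry diamonds, and Col6a3, an open circle since it was under 1 FPKM in both groups, lies far below the rest at 0.0147.

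Chains of the same collagen type are assembled together, and the ratio of their FPKM, which is scaled to length, was set side by side between groups. The ratios come from the same reads as the gene values above, so they restate those differences and are not separate results. The size of a ratio depends on the gene models the authors used, and whether amplification acted alike on both chains was not tested. For type I the ratio of Col1a1 to Col1a2 was 0.124 in the mutant (interval 0.111 to 0.138), 0.301 in wild type with ET-1 (interval 0.261 to 0.345) and 0.345 in wild type with PBS (interval 0.306 to 0.389). The mutant lay below both wild-type groups beyond counting error, and the wild-type intervals overlap. For type V the ratio of Col5a1 to Col5a2 was 2.82 in the mutant (interval 2.65 to 3.00), 1.76 in wild type with ET-1 (interval 1.64 to 1.89) and 1.03 in wild type with PBS (interval 0.946 to 1.12). The 3 groups did not overlap in their counting intervals. For type VI, Col6a3 over Col6a2 was 0.0176 in the mutant, 1.74 in wild type with ET-1 and 1.58 in wild type with PBS. For type IX, Col9a1 over Col9a3 was 0.301 in the mutant (interval 0.238 to 0.379), 0.206 in wild type with ET-1 (interval 0.126 to 0.326) and 0.346 in wild type with PBS (interval 0.244 to 0.486). These intervals all overlap. Col4a1 over Col4a2 was 0.679 in the mutant (interval 0.643 to 0.717), 0.741 in wild type with ET-1 (interval 0.675 to 0.814) and 0.916 in wild type with PBS (interval 0.835 to 1.00), where the interval with PBS lay above the other two. Col4a5 over Col4a6 was 2.07 in the mutant (interval 1.983 to 2.17), 1.85 in wild type with ET-1 (interval 1.73 to 1.978) and 1.91 in wild type with PBS (interval 1.78 to 2.04). Here the mutant interval lay just above that of wild type with ET-1. Between the cartilage fibril chains, Col11a1 over Col2a1 was 0.182 in the mutant (interval 0.173 to 0.192), 0.210 in wild type with ET-1 (interval 0.195 to 0.227) and 0.236 in wild type with PBS (interval 0.219 to 0.254). The mutant interval lay below those of both wild-type groups, which overlap. Every chain pair given here except that of type IX held groups whose intervals do not overlap. How often other gene pairs do so was not counted. These ratios have no replicates and no test.

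**Figure D5:**
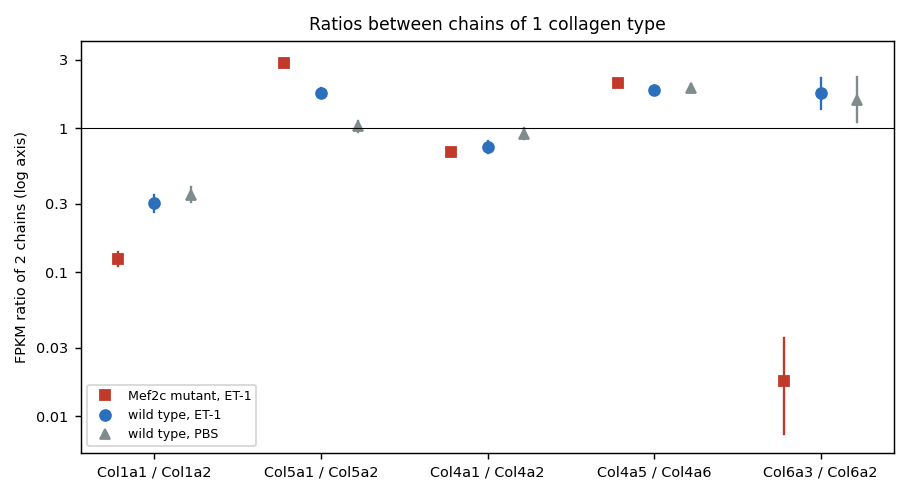
FPKM ratio (log axis) between 2 chains of 1 collagen type in the mutant with ET-1, wild type with ET-1 and wild type with PBS, with 95% counting intervals as bars. Col6a3 over Col6a2 was 0.0176 in the mutant and above 1 in both wild-type groups. Col4a5 over Col4a6 ran from 1.85 in wild type with ET-1 to 2.07 in the mutant, whose intervals do not overlap.

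Between the mutant with ET-1 and wild type with PBS, which differ in genotype and in treatment, the deposited table gives no p-value. Among 20 collagens with at least 1 FPKM in either, 3 were at 1.5 times or more and 3 at or below the inverse, where 9.19% and 9.56% of 15453 genes were. The higher ones were Col20a1 at 2.08 (interval 1.77 to 2.46), Col5a1 at 1.54 and Col4a2 at 1.53 (interval 1.42 to 1.64). The lower ones were Col3a1 at 0.397 (interval 0.340 to 0.464), Col1a1 at 0.445 (interval 0.384 to 0.515) and Col5a2 at 0.562 (interval 0.521 to 0.608). Across all measured collagens Col6a2 had the largest ratio, 3.16 (interval 2.31 to 4.402), from 317 reads in the mutant and 46 in wild type with PBS.

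Of the 34 measured collagens 13 stayed under 1 FPKM in every group. Col6a2, Col6a3, Col13a1, Col15a1 and Col5a3 were described above, and the others were Col4a4, Col7a1, Col9a1, Col9a2, Col11a2, Col16a1, Col17a1 and Col25a1. The levels of all 13 ran from 0.0143 to 0.816 FPKM in the mutant (median 0.404), from 0.0956 to 0.972 FPKM in wild type with ET-1 (median 0.360) and from 0.0504 to 0.919 FPKM in wild type with PBS (median 0.306). The highest ratio of mutant over wild type with ET-1 in the whole family was in Col9a1, a chain of cartilage type IX, at 1.82 (interval 1.17 to 2.94), from 108 and 25 reads. Col9a1 stood at 0.454 FPKM in the mutant, 0.249 FPKM in wild type with ET-1 and 0.486 FPKM in wild type with PBS. Its type IX partner Col9a2 was at 0.792, 0.669 and 0.691 FPKM in that order. Col4a4, a basement membrane chain, was at 0.816, 0.819 and 0.560 FPKM, and Col25a1, a transmembrane collagen, at 0.737, 0.955 and 0.919 FPKM. Col11a2, a chain of cartilage fibrils, was at 0.586 FPKM in the mutant and 0.360 FPKM in wild type with ET-1, a ratio of 1.63 (interval 1.18 to 2.28). The anchoring collagens of epithelia were low, with Col7a1 at 0.346, 0.223 and 0.256 FPKM and Col17a1 at 0.359, 0.333 and 0.306 FPKM. Over all 34, the counting interval of the ratio lay above 1 in 11 and below 1 in 8 for the mutant over wild type with ET-1, and above 1 in 13 and below 1 in 6 for ET-1 over PBS. These are not calls, since the intervals leave out the spread between embryos. The share of all genes with such intervals was not counted, so the family cannot be set against it. The 7 collagens not measured were Col4a3, Col6a1, Col6a6, Col8a1, Col8a2, Col19a1 and Col28a1, whose wild-type values were whole numbers of at most 4.

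Genes that make, move, bind and break down collagen were counted from lists of 79 genes present in the table. Of 53 tested, 2 rose with ET-1, Sparc and Timp3, and 0 fell, where 0.39% of all genes rose and 0.143% fell. At an unadjusted p under 0.05, 7 were higher and 1 lower, where 2.49% and 2.01% of all genes were. Sparc, a secreted protein that binds collagen, was at 60.8 FPKM with ET-1 and 39.5 FPKM with PBS (adjusted p = 0.00870, based on the authors' deposited table). Timp3, an inhibitor of metalloproteases bound to matrix, was at 25.3 FPKM with ET-1 and 14.4 FPKM with PBS (adjusted p = 9.89e-05, based on the authors' deposited table). In the mutant, 1 of 51 tested fell and 0 rose, where 3.75% of all genes fell and 1.18% rose. At an unadjusted p under 0.05, 7 were lower and 2 higher, where 7.12% and 4.45% of all genes were. The one that fell was P4ha1, the catalytic subunit that hydroxylates proline in collagen, at 20.95 FPKM in the mutant and 29.8 FPKM in wild type with ET-1 (adjusted p = 0.00837, based on the authors' deposited table). Its value with PBS was 31.6 FPKM. The calls of P4ha1 and Sparc were lost under the Benjamini-Yekutieli adjustment, and that of Timp3 was not.

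No other member of these lists was called in either comparison, and some were under 1 FPKM or not measured. The genes named below are among the 2 highest of each list in wild type with PBS. The list of 17 genes of chain modification and folding had a median log2 ratio of 0.02 with ET-1 and -0.06 in the mutant. The medians were 0.08 and -0.08 for 7 genes of export and propeptide cleavage, 0.37 and -0.32 for 2 crosslinking oxidases, and 0.17 and -0.16 for 5 receptors, each with ET-1 and in the mutant. They were -0.01 and -0.03 for fibril partners, 0.11 and 0.20 for transcription factors, and 0.12 and 0.16 for 8 genes of degradation. The value in wild type with ET-1 enters both ratios of a gene, on opposite sides. The medians of a list are therefore not independent of each other. The most abundant folding genes were Ppib, a prolyl isomerase, at 99.2 FPKM in the mutant, 97.4 FPKM in wild type with ET-1 and 106 FPKM in wild type with PBS, and P4hb, the partner subunit of P4ha1, at 81.1, 81.3 and 79.9 FPKM. For export and propeptide cleavage, Ctage5 was at 44.9, 37.4 and 35.3 FPKM and the coat protein gene Sec23a at 17.97, 21.9 and 22.6 FPKM. Of the crosslinking oxidases, Loxl2 was at 14.1, 17.8 and 13.97 FPKM and Loxl3 at 4.81, 6.26 and 4.496 FPKM. The receptor subunit Itgb1 was at 98.2, 93.3 and 83.0 FPKM, and Gpr56, an adhesion receptor known to bind type III collagen, at 23.1, 27.1 and 34.4 FPKM. Among fibril partners, fibronectin (Fn1) was at 60.2, 59.4 and 44.7 FPKM (adjusted p = 0.240 for ET-1, based on the authors' deposited table). The transcription factor genes Sp1 and Cbfb were at 38.0, 35.2 and 35.8 FPKM and at 39.95, 36.4 and 33.5 FPKM, and the collagenase Mmp14 at 13.1, 15.0 and 14.04 FPKM.

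Markers of other cells that the sort could hold were summed in each group, in the order mutant with ET-1, wild type with ET-1 and wild type with PBS. Of 6 somite and mesoderm markers 4 were measured, summing to 7.29 FPKM in the mutant, 7.81 FPKM in wild type with ET-1 and 5.80 FPKM in wild type with PBS. Of 6 notochord and cartilage markers only Sox9 was measured, at 25.7, 22.3 and 21.8 FPKM, and Foxa2, Matn1 and Shh were listed at 0 in every group. The 5 endothelial markers summed to 2.11, 2.77 and 3.14 FPKM, 4 of 6 epithelial markers to 2.91, 4.09 and 5.94 FPKM, and 2 of 4 cardiac markers to 5.98, 4.71 and 3.02 FPKM. Of 4 macrophage markers 2 were measured, summing to 13.2, 5.96 and 6.22 FPKM, and Cd68 rose in the mutant. Erythroid markers (4 of 5) summed to 12.2, 24.1 and 27.1 FPKM, yolk sac markers (2 of 5) to 0.566, 0.832 and 3.50 FPKM, where Afp fell with ET-1, and neural tube markers (3 of 5) to 70.8, 73.7 and 77.8 FPKM. The mesenchymal crest genes Twist1 and Prrx1 were low, at 0.936, 1.28 and 1.496 FPKM and at 0.408, 0.458 and 0.675 FPKM. The part of these cells in the collagen values was not tested.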

How the data were processed

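RNA was extracted with a column kit and amplified with a NuGEN Ovation kit, per the labels' protocols. The submitters' processing notes name build mm9, TopHat 1.3.1, Cufflinks 1.3.0 and Cuffdiff. The deposited table holds 1 FPKM value per group, per the file headers, and 1 p-value per comparison from the authors, taken as unadjusted. The deposited list of induced genes also holds a normalized fold made by the authors. Rows of whole numbers with a p of 1 (15639 genes in wild type) were read as unscaled numbers of untested genes and not used. There were 0 columns of other samples.

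The deposited p-values were adjusted with Benjamini-Hochberg across all genes measured in the 2 groups that reached 1 FPKM in one of them, and an adjusted p under 0.05 was a call. Rose and fell refer to these calls. Log2 ratios carry a pseudocount of 1 FPKM and understate changes of low genes. No test over samples was possible on group values, and how far the deposited p-values hold the spread between samples is not known.

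Pooled reads came from FPKM values that are whole multiples of 1 read in single-exon genes (within 0.02 of a whole number for 93.6% to 94.2% of genes). For a gene with several exons the smallest model length giving whole reads in all groups was used, or its multiple within 1% of the GENCODE M21 exon length. A length taken too short widens an interval and leaves the ratio as it is. Intervals (Clopper-Pearson) cover counting error only and take each read as a separate molecule. PCR copies are not separate molecules, so the intervals may be too narrow even for counting error. The adjustment and the read recovery were tested on simulated data, where the GENCODE M21 exon length was the true model length. Models of other lengths were not simulated. Starts were converted to count from 1.

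The collagen genes were chosen by name, and they and the gene lists were chosen with earlier results of these data known. All measured collagens were named, with statistics for called genes, the 3 highest and those with the largest ratios. From each list the called genes and the 2 highest were named. Python 3.11.15, scipy 1.17.1 and matplotlib 3.10.9 were used. Whether counting used strand is not stated.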

Additional observations from a re-analysis of the deposited data

Results flagged for a closer look

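Col6a3 had a large difference outside the genes tested, since it was under 1 FPKM in every group. With no filter on low values, the adjusted p of mutant against ET-1 wild type was 9.83e-23 (authors' deposited table). Col4a3, a basement membrane chain, had an FPKM value of 0.0363 in the mutant, while its wild-type values were whole numbers, 3 with ET-1 and 0 with PBS. At the GENCODE M21 exon length of 9967 bases the mutant value corresponds to 17 reads, in the deepest group.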

How the results depend on the processing

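No paired analysis was possible because the deposited table holds group values and no samples, and for the same reason no sample could be left out. The rise of Col5a1 with ET-1 and the falls of Col5a2 and Col3a1 in the mutant kept their side of the threshold under each alternative that tested them. With at least 5 FPKM in either group, which leaves Col3a1 out, 1 collagen fell in the mutant and 2 genes of the companion lists did, P4ha1 and Plod2. With the Benjamini-Yekutieli adjustment, 1 companion gene rose with ET-1 (Timp3, not Sparc) and 0 fell in the mutant. The median log2 ratio of fibrillar chains in the mutant was -0.051 without the filter on low values, which adds Col5a3 and Col11a2, and ranged from -0.26 to -0.051 over 6 alternatives. With a minimum of 0.5 FPKM, chosen after seeing the data, or none, Col6a3 was also called and 3 collagens fell, of 27 and 34 tested. The shares of all genes called under these alternatives are not given here, so the counts cannot be set against them. Centring on the median of all genes and upper quartile scaling shifted ratios by less than 0.1 on the log2 scale. Col13a1 and Col15a1 rest on fewer than 30 reads in each group, and differences there are hard to detect at this depth.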
